A study of Rattus norvegicus with 4 samples.

Results

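The calcitonin and adrenomedullin system was followed in rat adrenal medulla through 7 genes, namely the peptide genes Calca, Calcb and Adm, the receptor gene Calcrl, and the receptor partner genes Ramp1, Ramp2 and Ramp3. The members were all probe sets, sets of short oligomers that read 1 transcript together, whose platform annotation names 1 gene only, that gene being in this list. They came to 10 probe sets for the 7 genes, of 31042 probe sets outside the array's controls and 14217 genes named in this way. The samples were 2 arrays of adrenal medulla from rats immobilized for 2 h and 2 arrays from unstressed rats, each of total RNA. The labels give no strain, sex or age, and do not tell if immobilization was single or repeated or if arrays of the same group are separate animals or pools. The p-values therefore cover only the spread among these arrays, which could be technical.

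The peptides of this family act through a shared receptor. Calca encodes calcitonin and, by alternative splicing, calcitonin gene-related peptide (CGRP), a strong vasodilator known from sensory nerves. Calcb encodes a second form of CGRP, and Adm encodes adrenomedullin, a vasodilator peptide named after the adrenal medulla. Calcrl encodes the receptor protein, which reaches the cell surface only with a receptor activity modifying protein: with Ramp1 it binds CGRP, and with Ramp2 or Ramp3 it binds adrenomedullin. The receptors signal mainly through the G protein Gs and cyclic AMP.

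The tested probe sets of Calca and Ramp3 were higher in the immobilized group, and their 250 bases before the annotated start are shown with that of Adm, a peptide gene that was not called, for comparison. The sequences are those of RefSeq on the build GRCr8, which gave a window for 5 of the 7 members. Each is written 5′ to 3′ in the direction of the gene. The capitals mark matches to 5 motifs chosen after the values were known. They are TGACGTCA, the full cyclic AMP response element, TGACNTCA, the same with any base at the fifth position, and TGACG, its shorter core. The others are TGANTCA, the AP-1 element, and ACGTG, a form of the core of the hypoxia response element. The form GCGTG, with G in place of A, was not among the motifs. Both strands were searched, and TGACGTCA holds matches to TGACNTCA and TGACG within it.
Calca (chr1:178317530-178317779, minus strand): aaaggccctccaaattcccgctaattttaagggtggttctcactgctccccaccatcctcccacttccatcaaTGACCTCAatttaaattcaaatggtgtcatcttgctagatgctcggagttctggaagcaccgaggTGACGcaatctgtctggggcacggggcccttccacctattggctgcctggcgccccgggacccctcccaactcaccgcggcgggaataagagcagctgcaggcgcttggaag
Ramp3 (chr14:85741064-85741313, plus strand): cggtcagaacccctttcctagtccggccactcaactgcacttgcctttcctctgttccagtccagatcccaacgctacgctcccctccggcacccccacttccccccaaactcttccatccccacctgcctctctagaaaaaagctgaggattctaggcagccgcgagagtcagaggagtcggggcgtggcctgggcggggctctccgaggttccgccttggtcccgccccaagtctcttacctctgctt
Adm (chr1:174179950-174180199, plus strand): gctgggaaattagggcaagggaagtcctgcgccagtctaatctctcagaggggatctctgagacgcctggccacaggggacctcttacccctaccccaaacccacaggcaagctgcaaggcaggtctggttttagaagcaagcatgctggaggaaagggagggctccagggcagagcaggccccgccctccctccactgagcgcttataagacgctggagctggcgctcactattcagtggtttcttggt

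The Calca window held TGACCTCA, a match to TGACNTCA, at 177 to 170 bases before the start, and TGACG at 112 to 108 bases before it. Among 33469 rat windows of the same length, 8.88% held TGACNTCA and 18.2% held TGACG. The full element TGACGTCA stood in 1.59% of windows and not in that of Calca. AP-1 elements stood in 6.34% of windows and ACGTG in 16.6%. No match to any of the 5 motifs was found in the windows of Ramp3, Adm, Calcrl or Ramp1. The windows of Ramp3 and Ramp1 did hold GCGTG, the form of the hypoxia core left out of the search. Its share of all rat windows was not counted. These are matches of letters in a short window and say nothing of binding.

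The deposited values are linear intensities, 1 per probe set and array. All 4 arrays had an equal trimmed mean as deposited, and the arrays' median intensities were 864 and 827 in the immobilized group and 955 and 911 in the unstressed group. The median absolute difference in log2 value was 0.17 between the immobilized arrays, 0.21 between the unstressed arrays and 0.40 to 0.43 between arrays of different groups. Readings of 27 controls for Bacillus transcripts lay between 2.18 and 257 and served as a scale for dim readings, since no detection calls were used. Markers of chromaffin cells, the cells of the medulla that make adrenaline, were bright on every array. Of their 9 tested members 0 were called, where 11.2% of all tested genes rose and 21.8% fell. Th, the rate-limiting enzyme of catecholamine synthesis, read 68379 and 44651 in immobilized tissue and 54049 and 55633 in unstressed tissue. The highest readings of any probe set were 74591 and 52133 on the immobilized arrays and 70582 and 75600 on the unstressed arrays. Whether changes can be seen at levels so near the top was not tested. Cortical markers were bright too: Cyp11a1, the first enzyme of steroid synthesis, read 57289 and 41966 in immobilized tissue and 58703 and 66853 in unstressed tissue. The tissue on all 4 arrays thus held RNA of both parts of the gland. In bulk tissue fewer cells of a type and less RNA per cell cannot be told apart.

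The comparison asks which transcripts differ after 2 h of immobilization. It was made with limma on log2(intensity + 16) over all 18625 probe sets that reached the 40th percentile of mean level, an intensity of about 544. A call means a Benjamini-Hochberg adjusted p under 0.05 over all of them. Of the 10 member probe sets 5 were tested, 1 each for Calca, Adm, Ramp1, Ramp2 and Ramp3. The other 5, of Calca, Calcb and Calcrl, lay under the filter. Of the 5 tested, 2 rose, 0 fell and 3 were not called, where 31.1% of all tested probe sets were called, 11.7% upward and 19.4% downward. Calca passed the filter only through its immobilized readings. The rises made up 37.6% of all calls with the deposited scaling, 44.9% after quantile normalization and 53.2% when arrays were centred on their medians, which moved the median log2 change of tested probe sets to 0.02 from -0.12. Over all 10 member probe sets the groups did not overlap at 9, with 6 higher and 3 lower in the immobilized group, against 59.1% of all 31042 probe sets in either direction.

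**Figure D1:**
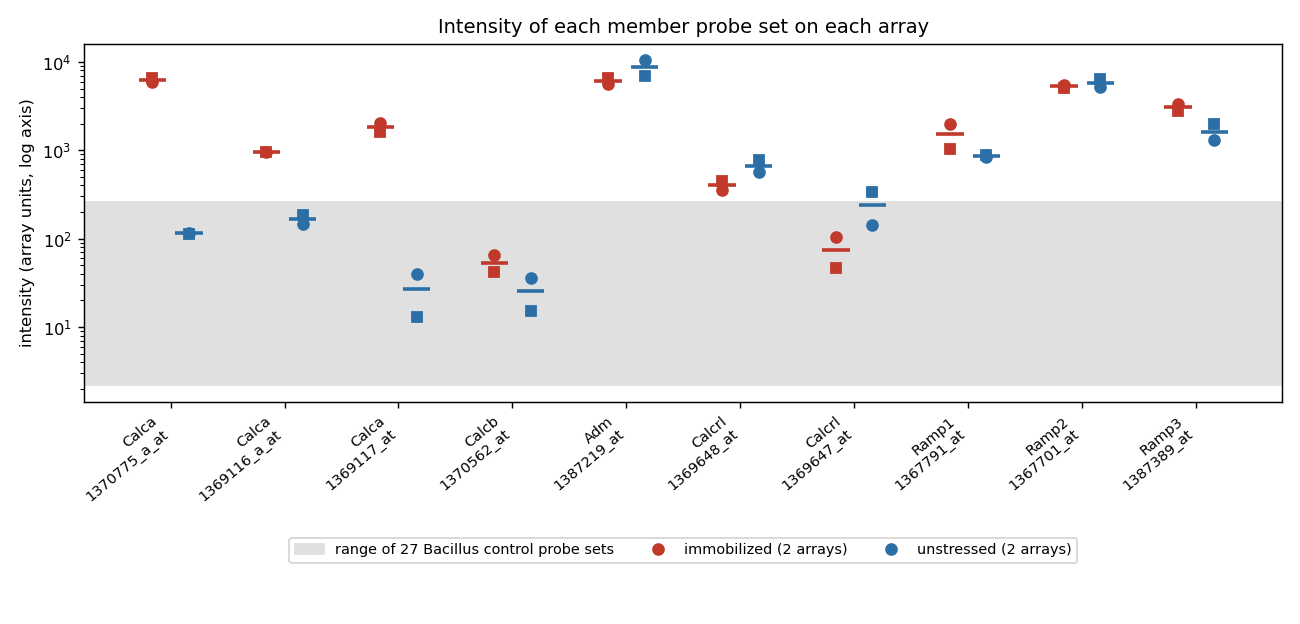
Intensity (array units, log axis) of the 10 member probe sets on each array, with immobilized arrays in red left of unstressed arrays in blue. Circles are the array numbered 1 in each group, squares the array numbered 2, bars are group means, and the grey band is the range of the Bacillus controls, 2.18 to 257. All 3 Calca probe sets stand above the band on the immobilized arrays and inside it on the unstressed arrays, while Calcb stays inside it on all 4.

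Calca had the largest change of the set. Its brightest probe set, 1370775_a_at, read 5911 and 6516 in immobilized tissue, against 117 and 114 in unstressed tissue. The immobilized arrays differed from each other by 1.10-fold and the unstressed arrays by 1.02-fold. The log2 change of these readings was 5.57 ± 0.21 (SE, n = 2 per group), with an adjusted p of 3.79e-05 in limma, or 0.000158 in a fit with no filter, where 6.69% of probe sets were called upward and 10.6% downward. Both unstressed readings lay below the highest Bacillus control of their own array, 193 and 189, so an unstressed level above background was not shown. Their closeness, which also enters the SE, is not a measure of the spread of Calca expression in unstressed tissue. The size of the change is therefore a bound: set against those control readings in place of its own, the Calca probe set was at least 30.1-fold higher in the immobilized group.

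The other Calca probe sets moved the same way by different amounts. Probe set 1369117_at read 2057 and 1621 in immobilized tissue and 40.3 and 13.0 in unstressed tissue. Against the highest Bacillus controls it was at least 8.91-fold higher in the immobilized group. Probe set 1369116_a_at read 947 and 963 in immobilized tissue and 147 and 184 in unstressed tissue. It was at least 4.70-fold higher against the same controls. The unstressed readings of both lay below the highest Bacillus control of their array. Neither was tested with the filter. In the fit with no filter their adjusted p in limma was 0.00118 and 0.00495. For all 3 Calca probe sets both immobilized readings exceeded both unstressed ones. Which of the gene's spliced transcripts each probe set reads was not analysed here, so calcitonin and CGRP messages are not separated by these values.

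Calcb was not shown to be expressed in either group. Its probe set, 1370562_at, read 65.6 and 41.9 in immobilized tissue and 35.6 and 15.1 in unstressed tissue. All 4 readings were below the highest Bacillus control of the same array, so no fold is given, although the groups did not overlap. On the immobilized arrays all 3 Calca probe sets read above the highest Bacillus control, where the Calcb probe set read below it. Calca and Calcb share much of their sequence, and how far the Calca probe sets also bind Calcb transcripts was not tested.

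Adm was bright in both groups and was not called. Its probe set, 1387219_at, read 5593 and 6562 in immobilized tissue, against 10442 and 6913 in unstressed tissue. The groups did not overlap, but the second unstressed array lay close to the immobilized arrays and the unstressed arrays differed by 1.51-fold. The log2 change was -0.49 ± 0.21 (SE), with a 95% interval of -0.98 to 0.01 and an adjusted p of 0.120 in limma. The interval runs from 1.97-fold lower to 1.01-fold higher in the immobilized group. The call turned on that array: without unstressed 2 the log2 change was -0.78 with an adjusted p of 0.00416, and without unstressed 1 it was -0.19 with an adjusted p of 0.389.

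**Figure D2:**
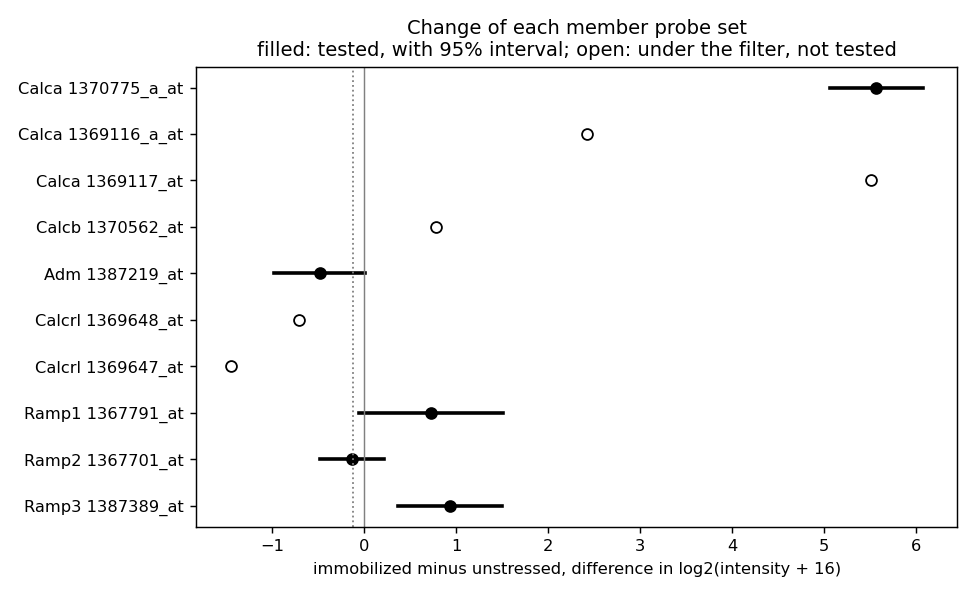
Change of each member probe set, as the immobilized minus unstressed difference in log2(intensity + 16), with filled points and 95% intervals for the 5 tested probe sets and open points for the 5 under the filter. The dotted line is the median of all tested probe sets, -0.12. The intervals of Calca and Ramp3 lie above 0, those of Adm, Ramp1 and Ramp2 include it, and both Calcrl points lie below it.

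The receptor gene Calcrl read lower in immobilized tissue at both of its probe sets, without a call. Probe set 1369648_at read 356 and 449 in immobilized tissue, against 565 and 775 in unstressed tissue. The groups did not overlap, and all 4 readings exceeded the highest Bacillus control of their array. Its mean level lay at percentile 38.8, just under the filter, and its log2 change was -0.71. In the fit with no filter the adjusted p was 0.185 and the 95% interval ran from -1.47 to 0.05. Probe set 1369647_at read 104 and 47.0 in immobilized tissue and 142 and 341 in unstressed tissue, and only 1 of these readings, the last, exceeded the highest Bacillus control of its array. No fold is given, since both immobilized readings and 1 unstressed reading lay below those controls. The adjusted p of the readings was 0.140 in the fit with no filter.

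Of the receptor partners, Ramp3 rose. It read 3328 and 2817 in immobilized tissue, against 1295 and 1963 in unstressed tissue. The lowest immobilized reading was above the highest unstressed one, and the unstressed arrays differed by 1.52-fold. The log2 change was 0.93 ± 0.24 (SE, n = 2 per group), or 1.91-fold, with a 95% interval of 0.37 to 1.50 and an adjusted p of 0.0256 in limma. It was 1.08 after quantile normalization and 1.07 after median centring. The call was lost without immobilized 1 (log2 change 0.81, adjusted p = 0.172) and without immobilized 2 (1.05, adjusted p = 0.111), and the change was 0.64 without unstressed 1 with the call kept.

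Ramp1, which makes the CGRP receptor with Calcrl, was not called, and its value rested on 1 array. It read 2006 and 1024 in immobilized tissue, against 836 and 886 in unstressed tissue. The groups did not overlap, but the immobilized arrays differed by 1.96-fold, more than the second of them differed from the unstressed ones. The log2 change was 0.73 ± 0.33 (SE), with a 95% interval of -0.06 to 1.51 and an adjusted p of 0.139 in limma. It was 0.25 without immobilized 1 and 1.21 without immobilized 2, with adjusted p of 0.600 and 0.0618.

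Ramp2, the partner that makes the main adrenomedullin receptor of blood vessels, was not called. It read 5492 and 5077 in immobilized tissue and 5257 and 6400 in unstressed tissue, and it was the only one of the 10 member probe sets at which the groups overlapped. The log2 change was -0.14 ± 0.15 (SE) with a 95% interval of -0.48 to 0.21, which allows from 1.40-fold lower to 1.16-fold higher. Its sign was positive, at 0.0044, after median centring and, at 0.0063, without unstressed 2. The difference between the changes of Ramp3 and Ramp2 was not tested.

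**Figure D3:**
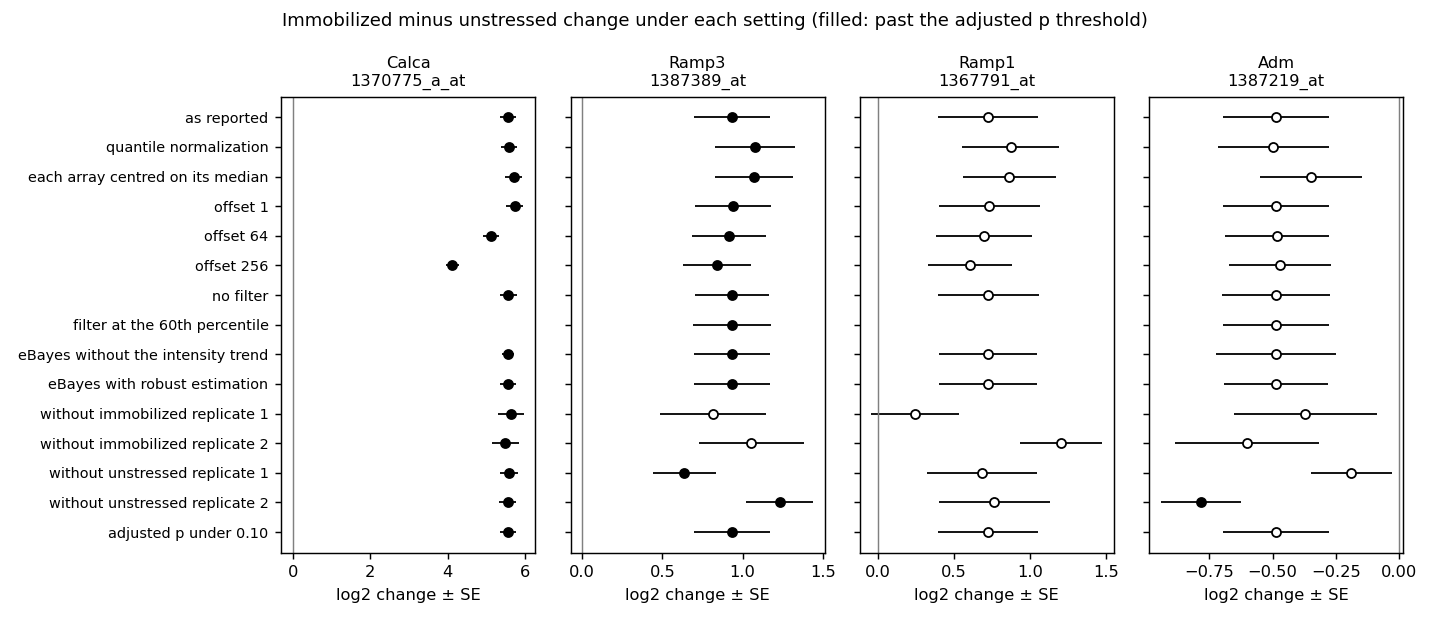
Immobilized minus unstressed log2 change ± SE of the tested probe sets of Calca, Ramp3, Ramp1 and Adm under each setting, with filled points where the adjusted p passed the threshold. Calca passed under every setting in which it was tested and ranged from 4.12 to 5.74. Ramp3 lost the call with either immobilized array left out, Adm gained it without unstressed 2, and Ramp1 had none. Calca and Ramp1 lay under the filter at the 60th percentile and have no point there.

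Markers of the cells known to carry these receptors were read beside them. Of 12 tested endothelial markers 2 rose and 1 fell, where 11.2% of all 10320 tested genes rose and 21.8% fell, and their median log2 change was 0.14, against -0.14 over those genes. Flt1, a receptor of vascular endothelial growth factor, rose by 1.45 at its brightest probe set, with its other tested probe set at 0.14. Esam rose by 0.59, while Kdr, the main receptor of that factor, had a change of -0.79. The summed intensity of the 13 endothelial markers read was 76057 and 81559 in immobilized tissue and 75098 and 85064 in unstressed tissue, and the groups overlapped. Of 7 tested markers of smooth muscle and pericytes 3 rose and 0 fell. Acta2, smooth muscle actin, rose by 1.36, Mcam by 1.08 and Tagln by 0.84. The other tested markers of that list had no call: Myh11 at 0.31, Rgs5 at 0.07, Pdgfrb at 0.02 and Des at -0.22. The sum over 8 markers was 47103 and 46094 in immobilized tissue, against 29169 and 24590 in unstressed tissue. Most of each sum was Acta2, Mcam and Tagln, so it says little of the other markers. Of 3 tested lymphatic endothelial markers 0 rose and 1 fell, the lineage factor Prox1, at -1.07. Lyve1 and Flt4 went the other way without a call, at 0.55 and 0.13, and the list median was 0.13. The sum over 4 markers was 14055 and 13871 in immobilized tissue, against 15140 and 17652 in unstressed tissue. Prox1 alone read 4260 and 4705 in immobilized tissue, against 9512 and 9352 in unstressed tissue. The part of these markers in the values of Ramp1, Ramp3 and Calcrl was not tested.

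Markers of sensory neurons, the best known source of CGRP, showed no call with the filter on level. Of 6 that were read, 4 lay under the filter, 2 were tested and 0 were called. The summed intensity of the 6 was 15159 and 11937 in immobilized tissue and 16748 and 11050 in unstressed tissue. Most of each sum was 1 gene, Prph, which read 12730 and 9555 in immobilized tissue and 15490 and 9471 in unstressed tissue. The sums thus say little of the other markers. Trpv1, the capsaicin receptor of pain fibres, read 145 and 162 in immobilized tissue and 203 and 214 in unstressed tissue. Scn11a, a sodium channel of the same fibres, read 45.0 and 39.9 in immobilized tissue and 30.7 and 129 in unstressed tissue. At Trpv1, shown by the brightest of its 3 probe sets, 3 of 4 readings exceeded the highest Bacillus control of their array, and at Scn11a none of the 4 did. Scn10a, tested and not called, read 715 and 897 in immobilized tissue and 502 and 703 in unstressed tissue, a log2 change of 0.42. P2rx3, under the filter, read 669 and 526 in immobilized tissue and 468 and 509 in unstressed tissue, a log2 change of 0.27. All 4 readings of each exceeded those controls. Tac1, the substance P gene, was under the filter and had the largest difference of the 6. It read 856 and 757 in immobilized tissue, against 53.9 and 23.9 in unstressed tissue. Both unstressed readings lay below the highest Bacillus control of their array, and against those controls Tac1 was at least 3.97-fold higher in immobilized tissue (adjusted p = 0.00304 in limma with no filter). Among all tested genes 11.2% rose and 21.8% fell. Of 8 tested markers each, 2 rose and 0 fell for the adrenal cortex, and 0 rose and 0 fell for macrophages. Of 4 tested markers of Schwann and sustentacular cells 1 rose and 1 fell. The summed intensities of these 3 lists and of the chromaffin list overlapped between the groups.

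Of 4 tested genes for related peptides and receptors 0 rose and 1 fell, where 11.2% of all tested genes rose and 21.8% fell. The median log2 change was 0.41, against -0.14 over all tested genes. The gene that fell was Crcp, which encodes an intracellular partner of the CGRP receptor. It read 2564 and 2926 in immobilized tissue, against 4306 and 4762 in unstressed tissue, a log2 change of -0.72 ± 0.15 (adjusted p = 0.0130 in limma). The call on Crcp was lost with either immobilized array left out. Calcr, the calcitonin receptor, lay under the filter and read 678 and 395 in immobilized tissue and 432 and 443 in unstressed tissue. Iapp, the gene for amylin, read 62.4 and 55.3 in immobilized tissue and 51.2 and 40.3 in unstressed tissue, all below the highest Bacillus control of their array.

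Of 10 tested genes for peptide processing and amidation 1 rose and 1 fell, against 11.2% and 21.8% of all tested genes. The list's median was 0.22, against -0.14 over all tested genes. Pcsk6, a proprotein convertase, rose by 1.95 ± 0.27, reading 1512 and 1016 in immobilized tissue and 283 and 336 in unstressed tissue. It passed the filter only through its immobilized readings, and its adjusted p in limma with no filter was 0.00907. Cpd, a carboxypeptidase, changed by -0.42 ± 0.13 (limma adjusted p = 0.0476), and the call was lost in 6 of 13 alternatives. Pam, which makes the terminal amide that calcitonin, CGRP and adrenomedullin need for activity, read 30696 and 24309 in immobilized tissue and 24609 and 22092 in unstressed tissue. Its change was 0.23 ± 0.16 and was not called.

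Of 8 tested genes for peptide breakdown and clearance 1 rose and 1 fell, against 11.2% and 21.8% of all tested genes. The list's median was -0.15, against -0.14 over all tested genes. Ackr3, a scavenging receptor that also takes up adrenomedullin, read 18651 and 17449 in immobilized tissue, against 512 and 525 in unstressed tissue. Like Calca, it passed the filter only through its immobilized readings. Its log2 change was 5.08 ± 0.14 (adjusted p = 1.87e-05 in limma), and it stayed called under all 13 alternatives. Ide, the insulin-degrading enzyme, had a change of -0.73 ± 0.13 at its brightest probe set, and that call was lost with either immobilized array left out. The 3 tested probe sets of Ide ranged from -0.76 to -0.14. Mme, neprilysin, which cleaves several of these peptides, had a change of -0.21 ± 0.12 and was not called.

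Of 21 tested genes for receptor coupling and trafficking 1 rose and 2 fell, against 11.2% and 21.8% of all tested genes. The list's median was -0.06, against -0.14 over all tested genes. Adcy9, an adenylyl cyclase, read 334 and 481 in immobilized tissue, against 1978 and 2026 in unstressed tissue, a change of -2.27 ± 0.25 that was called under all 12 alternatives in which it was tested. Adcy9 passed the filter only through its unstressed readings. Grk6, a receptor kinase, had a change of -0.67 ± 0.12, and Rab5a, a GTPase of early endosomes, rose by 0.75 ± 0.12. These are their brightest probe sets. The 3 tested probe sets of Grk6 ranged from -1.08 to -0.24, and the other tested probe set of Rab5a had 0.08. The call on Grk6 was lost with either immobilized array left out and that on Rab5a without immobilized 2. Gnas, which encodes the alpha subunit of Gs, had -0.23 ± 0.22 at its brightest probe set, with another probe set at 1.23.

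Of 15 tested hypoxia responsive genes, a class to which Adm is commonly counted, 5 rose and 0 fell. Among all tested genes 11.2% rose and 21.8% fell. The list's median was 0.11, against -0.14 over all tested genes. Pfkfb3, a regulator of glycolysis, rose by 2.24 ± 0.36, Ndrg1 by 1.00 ± 0.17 and P4ha1, a collagen hydroxylase, by 0.76 ± 0.16. The call on Pfkfb3 was lost without immobilized 2, and those on Ndrg1 and P4ha1 with either immobilized array left out. Vegfa, the vascular growth factor, had a change of 0.11 ± 0.13 and was not called. Over the 5 lists together 8 genes rose and 5 fell, against 4 and 2 without immobilized 1, 2 and 1 without immobilized 2, and 14 and 8 without unstressed 1.

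**Figure D4:**
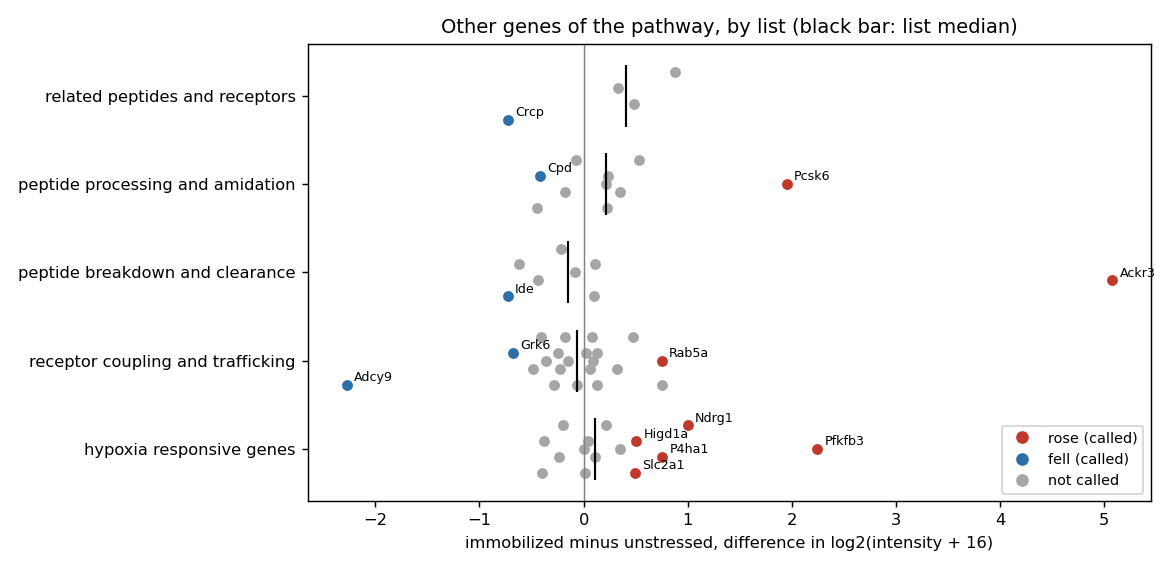
Immobilized minus unstressed difference in log2(intensity + 16) of each tested gene in 5 lists of related genes, 1 probe set each, with list medians as black bars and called genes named. Heights within a list only separate the points. Ackr3, at 5.08, stands farthest to the right and Adcy9, at -2.27, farthest to the left.

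The genes whose 4 readings ran most like those of each called member were found by the root mean square difference of log2 values over the 4 arrays, after taking off each probe set's own mean. For Calca they were Nr4a3, an orphan nuclear receptor, at 0.19, Adamts4, a proteoglycan-cleaving protease, at 0.24, and Ackr3 at 0.26. Nr4a3 read 37758 and 32859 in immobilized tissue, against 645 and 556 in unstressed tissue. For Ramp3 they were Eif4a1, a translation initiation factor, at 0.04, Adam8, a membrane protease, at 0.08, and Aff4, an elongation factor subunit, at 0.08. Eif4a1 read 32782 and 27722 in immobilized tissue, against 13733 and 19712 in unstressed tissue. With 4 arrays such likeness describes these readings only, and for Calca it uses unstressed readings at background.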

How the data were processed

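Total RNA of rat adrenal medulla was read on 4 single-colour arrays, grouped by the labels' descriptions. The deposited intensities are linear, 1 per probe set, in 31099 rows. No sources used here give their method of summarising probes. The deposited columns share 1 trimmed mean (2% left out at each end, spread 0.0056%), and this scaling was kept. The 57 control probe sets were left out. Genes were named from GEO's platform annotation, updated by Entrez identifier through a GRCr8 gene table: 20826 probe sets had 1 symbol, 436 several and 9780 none, and 0 symbols changed.

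Values were turned into log2(intensity + 16), which understates changes of dim genes, and the 12417 probe sets under the 40th percentile of mean level were not tested. The test was that of limma 3.58.1 under R 4.3.3 (lmFit, then eBayes with an intensity trend, 6.81 degrees of freedom), two-sided, and the fit was tested on simulated data. A gene in a list is represented by its brightest probe set. Each lower bound of a fold sets the bright group's mean against, per dim array, the higher of the probe set's own reading and the highest Bacillus control. Named from each list were up to 3 called rises and 3 called falls, or the 2 largest changes; other genes were named after seeing their values. The members and lists were chosen with earlier results of these data known. Alternatives were 2 scalings, offsets of 1, 64 and 256, no filter and a 60th percentile filter, 2 variance models, a threshold of 0.10, averaging over a gene's probe sets, and each array left out, where the lone array of a group is assumed to vary like the other group. Plots were drawn with matplotlib 3.10.9. The number of arrays limits the precision.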

Additional observations from a re-analysis of the deposited data

How the results depend on the processing

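The number of member probe sets that rose was 2, and it was 4 with no filter, where the other Calca probe sets entered, and 1 with the filter at the 60th percentile, which left Calca untested. It ranged from 1 to 2 with an array left out, and the number that fell ranged from 0 to 1, the 1 being Adm without unstressed 2. Calca rose in all 13 alternatives that tested it (4.12 to 5.74), and Ramp3 was called in 12 of 14 (0.64 to 1.23). Ramp2 changed sign, to 0.0044 after median centring and 0.0063 without unstressed 2, with a range of -0.28 to 0.01 when an array was left out. The log2 change of Calca was lowest, at 4.12, with the largest offset. Over all tested probe sets the calls were 2180 upward and 3619 downward, against 785 to 2638 and 893 to 3800 with an array left out. In the 5 wider lists together 8 genes rose and 5 fell, against 2 to 14 and 1 to 8 with an array left out, and 8 fell at a threshold of 0.10. The cause of these differences was not tested beyond the number of probe sets or arrays each alternative used.

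No paired analysis was possible because replicate numbers only follow the order of the samples and the labels tie no immobilized array to an unstressed one. Dim readings limit Calcb and Calcrl 1369647_at, for which no fold is given, and Calca, whose folds are given as bounds.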
